A study of Mus musculus with 6 samples.

Results

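The cytosolic ribosomal protein genes are described here in mouse gastruloids with and without budesonide, with the large and the small ribosomal subunit apart. Members were taken by symbol: Rpl or Rps followed by a number and at most one of the letters a, x, y or l and 1 more digit, together with Rpsa, Rplp0, Rplp1 and Rplp2, and without names marked as pseudogenes. This gave 89 of the 53819 gene symbols in the count table, 53 for the large (60S) and 36 for the small (40S) subunit. Of these, 85 had enough reads to be tested, 50 large and 35 small. The other 4 were Rpl32l, Rpl39l, Rpl3l and Rps12l1, with at most 17 reads in any library. Some matched symbols are relatives of a core subunit gene (Rpl10l, Rps4l, Rps27l) and not core subunits themselves.

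Gastruloids are 3D aggregates of embryonic stem cells, here of the mouse line E14, that model the onset of body axis formation. Polyadenylated RNA was sequenced from 3 untreated samples and from 3 samples given budesonide, a synthetic glucocorticoid, for 80 h. Both groups are of the same line and are aggregates. The labels name no vehicle in the untreated group, no dose, no age of the aggregates and no further allele, and they do not say whether replicates came from separate cultures, so a p-value here reflects the spread among these particular samples, which may be technical. Each sample is a bulk aggregate of a single cell line, so fewer cells of a type and less RNA per cell cannot be told apart. Counted reads per library ran from 5666168 to 7476862, where 3 reads are worth 0.422 to 0.552 CPM, the unit used throughout: reads scaled to a common library total after TMM correction for composition.

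A ribosome is built from ribosomal RNA and one copy of nearly every ribosomal protein, so the genes for these proteins are normally expressed together and at a high level. Their mRNAs begin with a short run of pyrimidines, the 5' terminal oligopyrimidine (TOP) element, through which the mTORC1 pathway and the protein LARP1 set how strongly they are translated. Transcription of the genes follows growth and, in many cells, MYC. Stem cells and early embryonic cells make ribosomes at a high rate, and a shortage or an excess of free ribosomal proteins is sensed through the 5S particle, which binds the p53 regulator MDM2.

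The labelled material was checked against markers. All 8 pluripotency markers listed for E14 cells were measured and their summed level was 1361.9 to 1415 CPM in untreated and 1954 to 2161 CPM in treated libraries. Of the streak and tailbud markers, 6 of 8 were measured and their sum was 271 to 294 CPM against 11.3 to 15.6 CPM. Fibroblast markers summed to 23.4 to 26.6 against 15.6 to 17.8 CPM (2 of 6 tested fell). Endoderm markers summed to 12.3 to 15.04 against 8.64 to 13.2 CPM (0 of 4 changed by edgeR), neural markers to 48.5 to 56.9 against 60.3 to 68.0 CPM (3 of 5 rose and 2 fell), and blood markers to 9.30 to 13.0 against 11.4 to 12.1 CPM. As signs of RNA quality, the rows for mitochondrial ribosomal RNA, 18S and 7SK took 10.53%, 12.1% and 12.4% of reads in the untreated and 12.6%, 13.7% and 12.1% in the treated libraries. Replication-dependent histone transcripts, which mostly lack a poly(A) tail, had 29 of 54 tested genes lower and 0 higher. The part of cell makeup and RNA quality in the results on ribosomal protein genes was not tested.

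Ribosomal protein genes were more often higher than lower with budesonide, by small amounts, and the small subunit genes more often than the large. In edgeR's quasi-likelihood test, with Benjamini-Hochberg adjustment over all genes at a threshold of 0.05, 27 of 35 small subunit genes rose, 1 fell (Rps10) and 7 were not called. Of the 50 large subunit genes, 25 rose, 0 fell and 25 were not called. Among all 17155 genes tested, 15.2% rose and 13.5% fell, 2601 and 2316 genes. With library totals and no scaling factors that split was 2003 higher and 3186 lower. The median log2 fold change (budesonide over untreated) was 0.29 for the small subunit, with quartiles of 0.20 and 0.35, and 0.16 for the large, with quartiles of 0.06 and 0.25. Over all genes tested it was -0.02. As folds, the medians were 1.22 and 1.12.

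A total of 32 of 35 small and 41 of 50 large subunit genes had a log2 fold change above 0. These counts include the 27 small and 25 large subunit genes called higher. Over all genes tested the median log2 fold change was -0.02. In 25 small and 21 large subunit genes every treated library lay above every untreated one, which held for 19.8% of all genes, and in 1 small (Rps10) and 0 large subunit genes every treated library lay below, as for 19.8% of all genes. Rises of over 1.2-fold were called in 20 of 35 small and 10 of 50 large subunit genes, and in 13.2% of all genes.

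**Figure D1:**
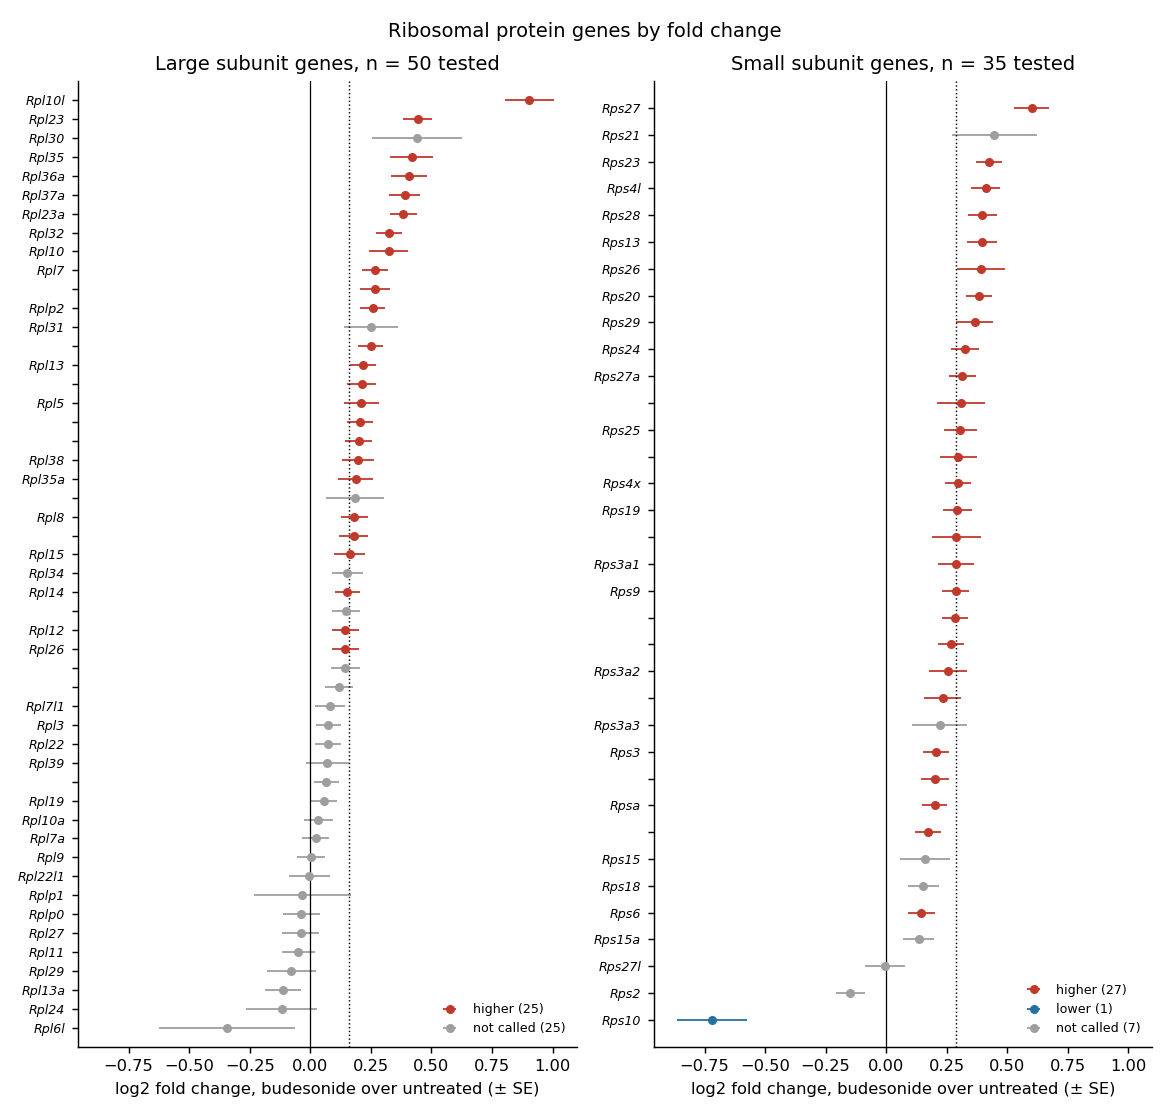
Log2 fold change (budesonide over untreated) of each tested large subunit gene (left, n = 50) and small subunit gene (right, n = 35), with points for the estimate and bars for its standard error. Red points are genes called higher and blue points genes called lower, and the dotted lines are the medians of 0.16 and 0.29. Rpl10l and Rps27 lead the rises and Rps10 is the only gene called lower. Names are given for genes described in the text.

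These counts depended on a correction for transcript properties. Ribosomal protein transcripts are short: the median was 795 bases among the tested members (816 large, 792 small) and 2871 bases among the 16694 tested genes with an annotated transcript. An offset for GC content and transcript length was fitted on the more abundant genes and applied to every tested gene with an annotated transcript. With it, 16 small subunit genes were higher and 3 lower (Rps10, Rps2 and Rps27l). Of the large subunit genes, 12 were higher and 6 lower (Rpl11, Rpl13a, Rpl22, Rpl22l1, Rpl27 and Rpl9). Under this offset 15.1% of all genes were higher and 15.3% lower. The medians were then 0.16 for the small and 0.04 for the large subunit. Leaving out treated replicate 1 lowered the count of risen large subunit genes from 25 to 16, and library totals without scaling factors gave 13 higher and 1 lower.

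Ribosomal protein transcripts also took a larger part of each treated library. The large subunit genes held 2.486%, 2.461% and 2.495% of counted reads in the untreated libraries and 2.666%, 2.523% and 2.672% in the treated ones. The small subunit genes held 1.783%, 1.850% and 1.870% against 2.098%, 2.005% and 2.081%. For both subunits each treated library lay above each untreated one, with the closest pair in the large subunit. On the TMM-scaled CPM scale, which corrects for library composition, the large subunit sum was 24468.5 ± 322 (SD, n = 3) untreated and 27259.9 ± 1217 treated, a ratio of 1.11. The small subunit sum was 18098 ± 615 (SD, n = 3) and 21443 ± 800, a ratio of 1.18. The small-to-large ratio of the summed CPM was 0.717, 0.752 and 0.749 in the untreated libraries and 0.787, 0.795 and 0.779 in the treated ones, so the groups did not overlap.

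Single libraries moved the members together. Taking each member relative to its untreated mean, the median log2 difference over the large subunit was -0.06, 0.01 and 0.04 in the untreated and 0.21, 0.08 and 0.16 in the treated libraries. For the small subunit it was -0.07, 0.00 and 0.06 against 0.36, 0.25 and 0.26. Untreated replicate 1 was the lowest untreated library for 30 of 50 large and 25 of 35 small subunit genes, and untreated replicate 3 the highest for 29 and 26. Among the treated libraries, replicate 1 was the highest for 32 large and 26 small subunit genes and replicate 2 the lowest for 31 and 19. The median coefficient of variation of a member within a group was 5.96% untreated and 7.04% treated, and Rpl6l was the most variable member in both groups.

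**Figure D2:**
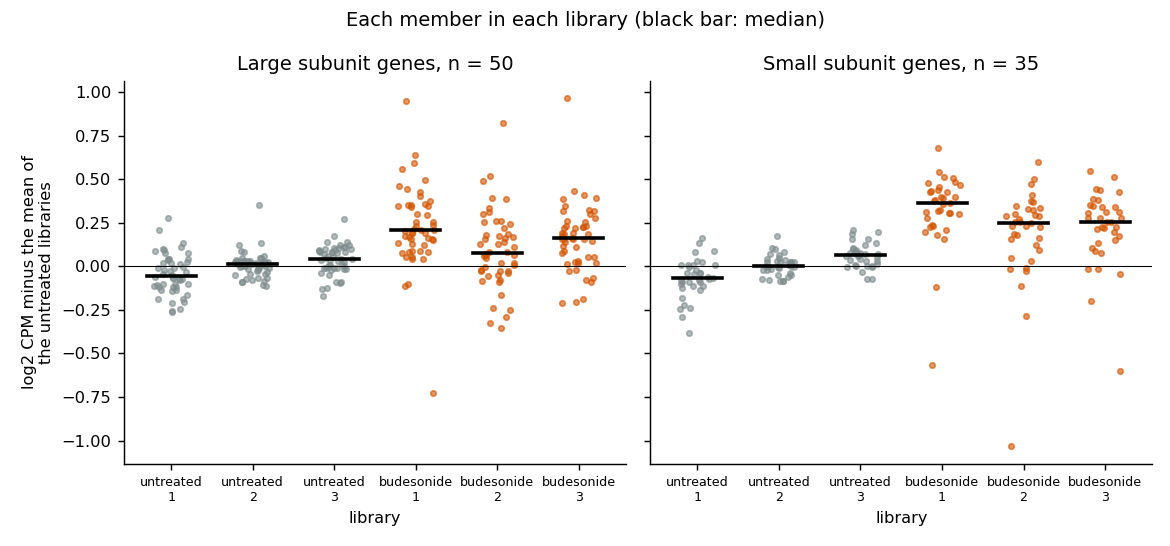
Log2 CPM of each tested member minus its mean over the untreated libraries, by library, for the large (left) and small subunit (right). Each point is a gene and the black bars are medians. The medians of the treated libraries lie between 0.08 and 0.21 for the large subunit and between 0.25 and 0.36 for the small subunit, above those of all 3 untreated libraries.

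The small subunit genes were read by the place of their protein. Of the 14 genes for proteins of the head, where mRNA enters and the subunit swivels, 11 rose and 1 fell. Their median log2 fold change was 0.29. In the whole small subunit 27 of 35 rose and 1 fell, with a median of 0.29. Rps28, whose protein sits near the mRNA exit, stood at 208, 227 and 229.9 CPM in untreated replicates 1, 2 and 3 and at 315, 272 and 288 CPM in the treated ones. The groups were clearly apart (log2 fold change 0.40 ± 0.06 (SE), adjusted p = 9.65e-07, edgeR). Rps20 rose from 636 ± 32 to 829 ± 7.78 CPM (SD, n = 3), a log2 fold change of 0.38 ± 0.05 (SE). Rps19, the gene most often mutated in Diamond-Blackfan anaemia, rose from 425 ± 24.9 to 521 ± 41.9 CPM (SD, n = 3). Rps3, which lines the mRNA entry channel and shares few sequences with other genes, rose by less, with a log2 fold change of 0.21 ± 0.05 (SE), and with the GC and length offset it was 0.12 and no longer called. Rps27a, made as a fusion with ubiquitin, had a log2 fold change of 0.31 ± 0.06 (SE). Rps15 and Rps18 were not called, with log2 fold changes of 0.16 and 0.15, and both were called without treated replicate 2, at 0.29 and 0.25.

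Rps10 was the only small subunit gene that fell. Its protein sits on the head at the mRNA entry and is ubiquitylated when ribosomes stall. It stood at 18.9, 19 and 19 CPM in the untreated libraries and at 12.8, 9.27 and 12.5 CPM in the treated ones, from 124, 135, 121, 91, 63 and 68 reads. The untreated libraries were nearly identical and all treated ones lay below them, treated replicate 2 the furthest. With 121 to 135 reads in each untreated library, counting error is larger than the differences in CPM among them, so their SD understates it. The log2 fold change was -0.72 ± 0.14 (SE), with an adjusted p of 9.4e-05 in edgeR. Rps10 had the lowest level per kilobase of transcript of the tested small subunit genes, 21.4 ± 0.0633 CPM per kb (SD, n = 3), and rows named as its pseudogenes held 36.8% of the reads of gene and pseudogenes together, more than for any other member. Those rows held 31, 64 and 58 reads in the untreated and 79, 73 and 45 reads in the treated libraries. With their reads added, the log2 fold change was -0.30 and the adjusted p 0.0526, the weakest of the settings tried, which ranged from 5.25e-06 to 0.0526. In the GENCODE M21 annotation 20.6% of its exon bases also belong to a readthrough gene, RPS10-NUDT3, which has no row in the count table.

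Of the 17 genes for proteins of the body and platform, 14 rose and 0 fell, with a median of 0.29. The whole small subunit had 27 of 35 higher and 1 lower. Rps27, a zinc-binding protein, stood at 102, 127 and 134 CPM untreated and at 193, 182 and 176 CPM treated. All treated libraries lay above all untreated ones, and untreated replicate 1 was the lowest. Its log2 fold change of 0.60 ± 0.07 (SE) was the largest of the small subunit (adjusted p = 3.71e-08, edgeR), and 98.6% of its transcript occurs in other annotated genes. Over the 24 settings it ranged from 0.37 to 0.69 and stayed called.

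Rps23, which lies at the decoding centre, stood at 978, 1041 and 1042 CPM untreated and at 1375, 1281 and 1457 CPM treated. Its groups were apart by more than the range within either (log2 fold change 0.43 ± 0.05 (SE), adjusted p = 1.15e-08, edgeR). Rps13 stood at 130.03, 138 and 148 CPM and at 186, 184 and 176 CPM, with the treated libraries above (log2 fold change 0.40 ± 0.06 (SE), adjusted p = 1.79e-06, edgeR). Rps26, at the mRNA exit, had a log2 fold change of 0.39 ± 0.10 (SE) and was not called with upper quartile scaling, without scaling factors, with the GC and length offset or without treated replicate 2 (0.37).

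Rpsa, also known as a laminin receptor, stood at 3556, 3921 and 3747 CPM untreated and at 4289, 4076 and 4536 CPM treated. The lowest treated library lay just above the highest untreated one, and the log2 fold change was 0.20 ± 0.05 (SE). Rps6, the subunit protein phosphorylated downstream of mTORC1, had overlapping groups and a log2 fold change of 0.14 ± 0.06 (SE). It was called with an adjusted p of 0.047 by edgeR, and not under the GC and length offset, where the value was -0.01, nor without untreated replicate 2 (0.12) or 3 (0.14) or treated replicate 1 (0.13) or 3 (0.11). Rps2, which binds at the mRNA entry, had a value below 0. It stood at 1492, 1302 and 1288 CPM untreated and at 1251, 1116 and 1319 CPM treated. These groups overlapped (log2 fold change -0.15 ± 0.06 (SE), adjusted p = 0.059, edgeR). With the GC and length offset, with upper quartile scaling, without scaling factors and with no filter on low counts Rps2 was called lower, at -0.19, -0.20, -0.23 and -0.18, and likewise without treated replicate 3 (-0.20) and with the replicate number as a block (-0.15). Rps21 was above its untreated range in all treated libraries at 345, 350.1 and 336 CPM against 190.1, 279.9 and 286 CPM, and was not called (log2 fold change 0.45 ± 0.17 (SE), adjusted p = 0.143, edgeR). Untreated replicate 1 was the low library, and without it the value was 0.29 and called. Rps21 was also called higher by DESeq2 (0.47), with no filter on low counts (0.42) and with the replicate block (0.47). With the GC and length offset and the block together it was called too, at 0.27.

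Rps3a1 and its close copies Rps3a2 and Rps3a3, which can trade reads, had log2 fold changes of 0.29 ± 0.07 (SE), 0.25 ± 0.08 (SE) and 0.22 ± 0.11 (SE), and Rps3a1 and Rps3a2 were called. Treated replicate 3 lay within or next to the untreated range in all of them. Without treated replicate 1 neither Rps3a1 (0.20) nor Rps3a2 (0.17) was called, nor was Rps3a2 without untreated replicate 2 (0.22), while Rps3a3 was called without untreated replicate 3 (0.30) or treated replicate 3 (0.32).

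**Figure D3:**
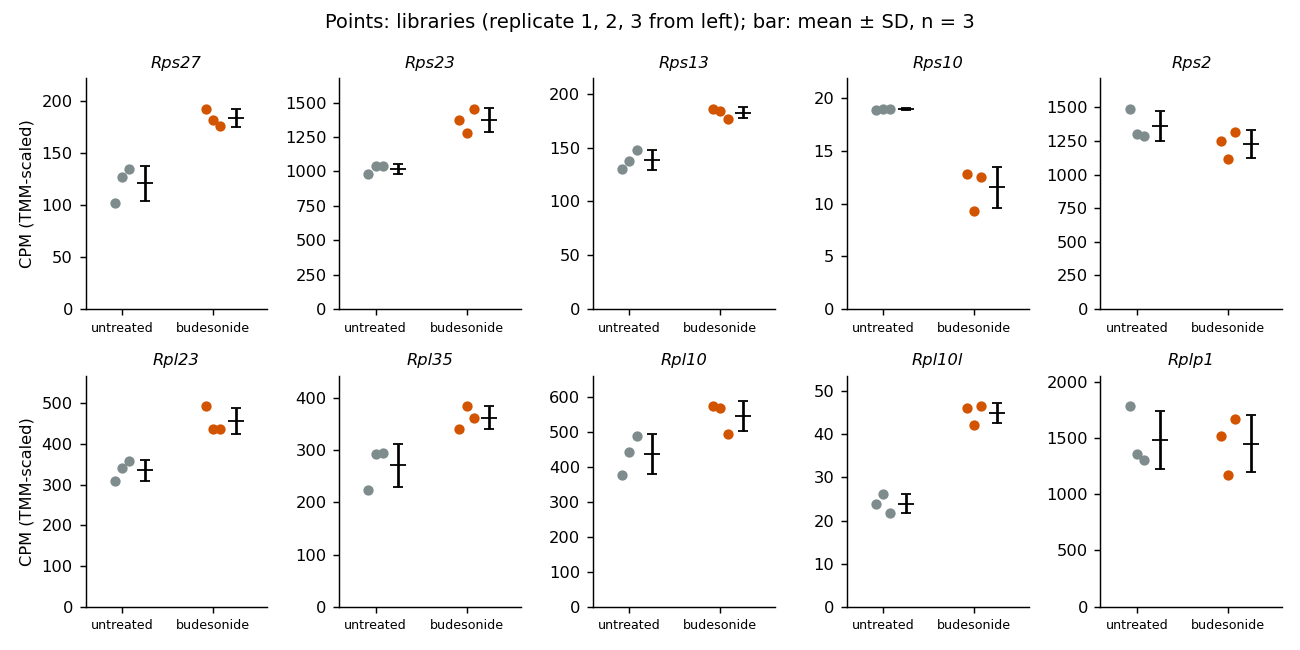
TMM-scaled CPM (linear axes from 0) of 10 members in each library, with points for replicates 1, 2 and 3 from left and bars for the mean ± SD (n = 3). Rps27, Rps23, Rps13, Rpl23, Rpl35, Rpl10 and Rpl10l have every treated library above every untreated one, Rps10 has every treated library below, and the groups overlap for Rps2 and Rplp1.

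Of the 6 large subunit genes of the 5S particle and the stalk, 3 rose (Rpl5, Rplp2 and Rpl12) and 0 fell, beside 25 and 0 of the 50 in the whole subunit. Rpl5 and Rpl11 carry 5S rRNA into the subunit and, when free, bind MDM2. Rpl5 stood at 678, 589 and 620.3 CPM untreated and at 814, 637 and 734 CPM treated. The groups overlapped, since treated replicate 2 lay within the untreated range, and the gene was called (log2 fold change 0.21 ± 0.07 (SE), adjusted p = 0.0295, edgeR) but not by DESeq2 and not with the GC and length offset, where the value was 0.11. The call was also lost without untreated replicate 2 (0.17) or 3 (0.21) or treated replicate 1 (0.13) or 3 (0.21). Rpl11 stood at 243, 231 and 266 CPM and at 259, 206 and 248 CPM, with overlapping groups (log2 fold change -0.05 ± 0.07 (SE)). With the GC and length offset it was called lower, at -0.17. Summed, the pair took 819.9 to 921 CPM untreated and 844 to 1073 CPM treated.

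The stalk, which recruits the elongation factors, consists of Rplp0, Rplp1 and Rplp2 on a base with Rpl12. Rplp1 was the most variable of these, at 1781, 1359 and 1305 CPM untreated and 1513, 1169 and 1665 CPM treated, and its standard error was large (log2 fold change -0.03 ± 0.20 (SE)). Rplp0 stood at 1886, 1666 and 1619 CPM and at 1592, 1533 and 1917 CPM, again with overlap (log2 fold change -0.04 ± 0.08 (SE)). In both genes untreated replicate 1 and treated replicate 3 were the high libraries. Rplp2 was higher in every treated library, at 1297, 1145 and 1214 CPM against 1002, 1008 and 1049.98 CPM (log2 fold change 0.26 ± 0.05 (SE), adjusted p = 0.000144, edgeR). Rpl12 had a log2 fold change of 0.14 ± 0.06 (SE), with overlapping groups and an adjusted p of 0.0449 by edgeR, and DESeq2 did not call it. Leaving out untreated replicate 2 or 3 or treated replicate 1 or 3 also ended that call, at 0.11, 0.15, 0.14 and 0.11. So 2 of the 4 stalk genes rose, with a median of 0.06 over the 4.

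Of the 9 genes for proteins around the exit of the nascent peptide tunnel, 5 rose and 0 fell, with a median of 0.20. The whole large subunit had 25 of 50 higher and 0 lower, with a median of 0.16. Rpl23a, a docking site of the signal recognition particle, stood at 491, 468 and 496 CPM untreated and at 683, 579 and 636 CPM treated. The treated libraries were all above (log2 fold change 0.38 ± 0.06 (SE), adjusted p = 4.32e-07, edgeR). Rpl35, beside it, stood at 224, 292 and 295 CPM and at 339.8, 384 and 361 CPM. Its untreated replicate 1 was low, its groups did not overlap (log2 fold change 0.42 ± 0.09 (SE), adjusted p = 0.00232, edgeR), and it was not called with upper quartile scaling, with the GC and length offset or without treated replicate 2 (0.39). Rpl38, mutated in the tail-short mouse, had a log2 fold change of 0.20 ± 0.07 (SE) that was 0.02 with the offset, and was not called without untreated replicate 2 (0.20) or treated replicate 1 (0.11). Rpl19, Rpl22, Rpl31 and Rpl39 were not called, with values of 0.06, 0.07, 0.25 and 0.07, and Rpl22 was -0.14 and called lower with the offset. Rpl26 was called with a log2 fold change of 0.14, which was -0.05 with the offset and not called without untreated replicate 2 (0.14) or 3 (0.15) or treated replicate 1 (0.12) or 3 (0.10). Without untreated replicate 3 or treated replicate 3 Rpl31 was called higher, at 0.32 and 0.34, and without treated replicate 2 Rpl19 was, at 0.14.

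Of the other 32 large subunit genes outside these groups and the paralogs, 16 rose and 0 fell, with a median of 0.17. That stands beside 25 and 0 of the 50 in the whole subunit, with a median of 0.16. Rpl23, an MDM2-binding protein at the subunit interface, stood at 308, 342 and 358 CPM untreated and at 493, 438 and 438 CPM treated, with all treated libraries above (log2 fold change 0.44 ± 0.06 (SE), adjusted p = 5.55e-08, edgeR). Rpl36a, near the exit site for tRNA, stood at 149, 168 and 178 CPM and at 248, 207 and 199 CPM (log2 fold change 0.41 ± 0.07 (SE)). Rpl37a stood at 152, 183 and 186 CPM and at 238, 215 and 229 CPM (log2 fold change 0.39 ± 0.07 (SE)). In all of these the 2 groups did not overlap, and the calls held with the GC and length offset. Rpl10, one of the last proteins to join the subunit, rose from 436 ± 56.3 to 545 ± 44 CPM (SD, n = 3, log2 fold change 0.32 ± 0.08 (SE)), and this call was lost with upper quartile scaling, without scaling factors, with the offset and without treated replicate 2 (0.31).

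Large subunit genes that were not called include Rpl3, near the peptidyl transferase centre, at 1062 ± 8.41 CPM untreated and 1119 ± 68.6 CPM treated (SD, n = 3, log2 fold change 0.07 ± 0.05 (SE)). Rpl7a, Rpl9 and Rpl10a had log2 fold changes of 0.02, 0.001 and 0.03. Rpl30 stood at 102, 119 and 146 CPM untreated and at 188, 169.5 and 138 CPM treated. Its spread was wide within both groups, which overlapped (log2 fold change 0.44 ± 0.18 (SE), adjusted p = 0.163, edgeR). Rpl30 was called without untreated replicate 3 (0.60) or treated replicate 3 (0.55), and with no filter on low counts (0.41). Rpl13a, Rpl24, Rpl29 and Rpl6l had values below 0, -0.11, -0.12, -0.08 and -0.34, and none was called. Without untreated replicate 1 Rpl13a was called lower (-0.19), and without treated replicate 2 Rpl3 was called higher (0.13). In GENCODE M21 Rpl24 shares 47.0% and Rpl13a 29.4% of exon bases with another gene on the same strand, Gm28037 and Gm45713, so reads can be split between them.

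The paralogs within the rule behaved unlike one another. Rpl10l, an autosomal relative of the X-linked Rpl10 known for its role in male germ cells, stood at 23.8, 26.2 and 21.8 CPM in the untreated libraries and at 46.1, 42.2 and 46.5 CPM in the treated ones. All treated libraries were well above all untreated ones. Its log2 fold change of 0.90 ± 0.10 (SE), a 1.87-fold rise (adjusted p = 6.13e-10, edgeR), was the largest of all members, and it ranged from 0.78 to 0.98 over the 24 settings. Only 7.6% of its transcript occurs in other annotated genes. Rps4l, a relative of Rps4x, stood at 195, 204 and 202 CPM and at 280.2, 247 and 273 CPM (log2 fold change 0.41 ± 0.06 (SE), adjusted p = 2.97e-07, edgeR), and Rps4x at 537, 551 and 569 CPM and at 707, 657 and 669.8 CPM (log2 fold change 0.30 ± 0.05 (SE)). Both pairs of groups were separate.

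Other paralogs were not called. Rpl22l1 stood at 45.7, 48.5 and 49.3 CPM untreated and at 49.6, 46.5 and 46.9 CPM treated, with overlap and a log2 fold change of -0.0047 ± 0.09 (SE). Rps27l, a p53 target, stood at 63.6, 67.3 and 71 CPM and at 74.8, 66.7 and 58.6 CPM, also with overlap (log2 fold change -0.01 ± 0.08 (SE)). With the GC and length offset Rpl22l1 and Rps27l were called lower, at -0.24 and -0.22. Rpl7l1 had a log2 fold change of 0.08 ± 0.06 (SE). Rpl3l, known from heart and skeletal muscle, had 11, 4 and 8 reads untreated and 7, 9 and 6 reads treated, and Rpl39l, known from testis, 6, 5 and 12 against 17, 10 and 7 reads. Rpl32l had 6, 9 and 2 against 12, 16 and 6 reads and Rps12l1 2, 8 and 2 against 4, 3 and 4 reads. None of these 4 had enough reads for a test, and their groups overlapped.

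Levels differed widely between members, which include paralogs beside the core subunit genes, most of them nominally of 1 copy per ribosome. Per kilobase of transcript in the untreated libraries, the 84 members that average 5 CPM or more had a median of 541 CPM per kb, quartiles of 196 and 751, and a range from 21.1 to 2969, or 141-fold. The large subunit order was led by Rplp1 at 2969 ± 522 CPM per kb (SD, n = 3), then Rpl22 at 1769 ± 49.4, Rpl19 at 1378 ± 70.4, Rpl8 at 1278 ± 77.5 and Rplp0 at 1269 ± 105. The last 3 lay within their spread of one another. The lowest were Rpl22l1 at 86.7 ± 3.42, Rpl15 at 72.4 ± 3.12, Rpl7l1 at 52.3 ± 1.25, Rpl10l at 23.4 ± 2.11 and Rpl24 at 21.1 ± 1.41 CPM per kb. Among small subunit genes Rpsa led at 1930.3 ± 94.2 CPM per kb, and among the next highest were Rps2 at 1244 ± 104, Rps9 at 1242 ± 89.7 and Rps23 at 1089 ± 39.2. Rps2 and Rps9 overlapped in their spread. The lowest were Rps3a2 at 129 ± 6.8, Rps3a1 at 127 ± 10.1, Rps25 at 116 ± 6.63, Rps15a at 54.8 ± 1.25 and Rps10 at 21.4 ± 0.0633 CPM per kb. The SD of Rps10 is smaller than the counting error of its reads. Lengths are of 1 annotated transcript per gene (5179 bases for Rps15a, 3706 for Rps20), and a shorter transcript in use would raise such a level. The lowest level, that of Rpl24, is also uncertain because 47.0% of its exon bases are shared with Gm28037, so its reads can be split.

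Ribosomal protein genes have many processed copies in the genome, and reads that fit several places can be lost or assigned to a copy. Cut into windows of 50 bases, the transcripts of 86 of the 89 members held at least 1 window also found in the transcript of another annotated gene, with a median of 53.3% of windows shared. Rpl39l and Rpl3l were among those that shared none. How the counting treated reads with several matches is not given in the sources used here, so each level is uncertain to that extent. Spearman's rho between the shared share and the log2 fold change was -0.06 over 85 genes, a description across genes of the same libraries. Among the 13 tested members with under 25% shared, 8 rose and 0 fell, with a median of 0.20. Of the 49 with 25% to 75%, 30 rose and 1 fell (median 0.20), and of the 23 with more, 14 rose and 0 fell (median 0.22).

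Length was examined in genes that are no members. Among 1557 other genes with a transcript of at most 1000 bases the median log2 fold change was 0.04. For the 115 of these that average 50 CPM or more it was 0.09, and 37 were higher and 13 lower. The 22 such genes of at most 500 bases had a median of 0.39, and the 13 members of that length 0.20. From 750 to 1000 bases the 53 other abundant genes had a median of -0.03 and the 24 members 0.26. Among the members themselves length tracked the log2 fold change weakly (Spearman's rho -0.11, Pearson's r -0.04, n = 85), as did GC content (rho -0.19) and mean level (rho 0.05). These are descriptions across genes that share the same 6 libraries.

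**Figure D4:**
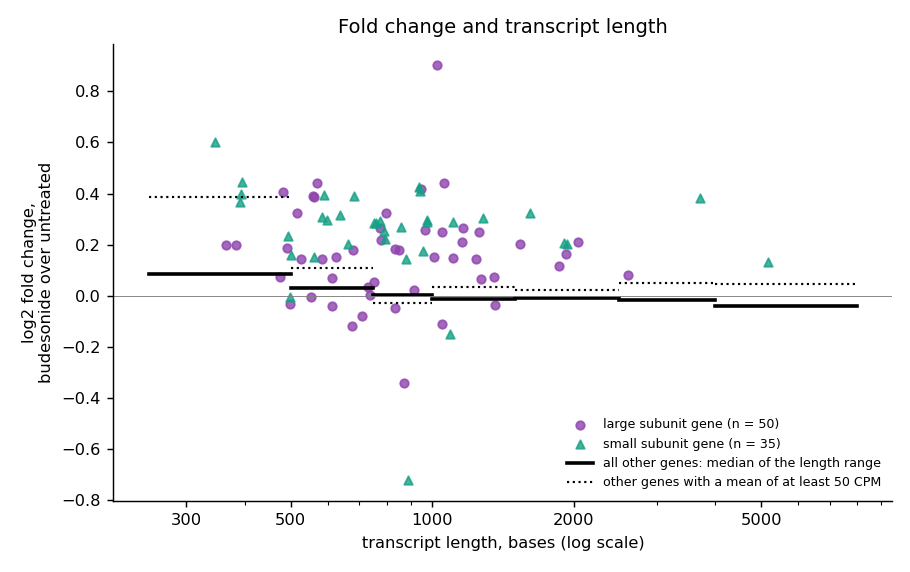
Log2 fold change (budesonide over untreated) of each tested member against transcript length in bases (log axis), with circles for the large and triangles for the small subunit. Solid lines are the medians of all other genes in a length range, from 0.08 for the shortest to -0.04 for the longest, and dotted lines those of other genes that average 50 CPM or more, at 0.39 for the shortest. Most members lie above the solid line of their range.

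An offset for length alone left 18 small subunit genes higher and 2 lower and 13 large higher and 3 lower, with medians of 0.17 and 0.06. An offset for GC content alone left 24 higher and 1 lower and 20 higher and 0 lower, with medians of 0.26 and 0.13. Both were added after the data were seen. Called higher under the other scalings, tools and filters, the replicate block, the joint GC and length offset, the added pseudogene reads and each library left out were 16 of the 27 risen small and 10 of the 25 risen large subunit genes. With the length offset alone Rps29 (0.17) and Rpl13 (0.11) were no longer called, which left 15 and 9. Among the 15 small subunit genes were Rps4l, Rps4x, Rps9, Rps13, Rps19, Rps20, Rps23, Rps24, Rps25, Rps27, Rps27a, Rps28 and Rpsa. Among the 9 large were Rpl7, Rpl10l, Rpl23, Rpl23a, Rpl32, Rpl36a, Rpl37a and Rplp2.

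**Figure D5:**
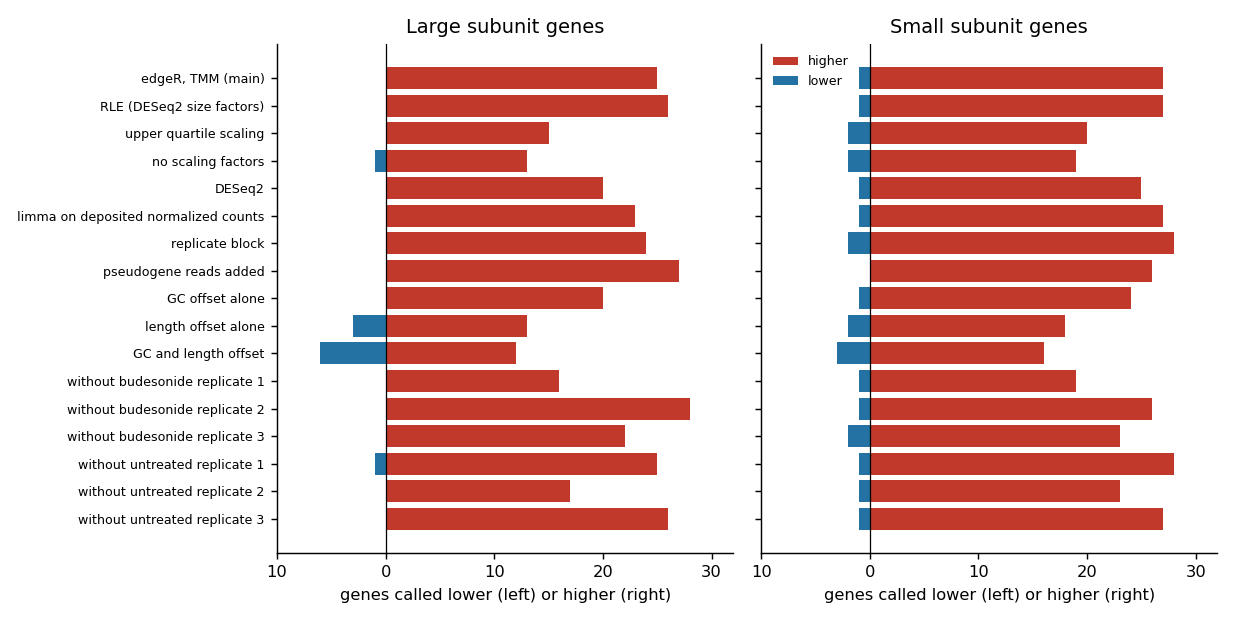
Number of large (left) and small subunit genes (right) called higher (red, to the right of 0) and lower (blue, to the left) with budesonide under each analysis setting named on the left. The large subunit count of risen genes runs from 12 with the GC and length offset to 28 without treated replicate 2, and the small subunit count from 16 with the offset to 28.

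The start of the transcript is where the TOP element lies, and the bases around it show how far members that moved differently share a pyrimidine run. RefSeq promoter windows (build GRCm38.p6, 250 bases before to 50 after the annotated start) were matched by symbol for 64 of the 89 members. The 30 bases shown run from 15 before to 15 after the annotated start, 5′ to 3′ on the gene's strand, with capitals for a run of at least 7 pyrimidines and no capitals where the window holds none.
Rps27, chr3:90213634-90213663, minus strand: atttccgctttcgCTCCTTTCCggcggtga
Rps13, chr7:116334176-116334205, minus strand: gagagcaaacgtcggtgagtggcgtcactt
Rps23, chr13:90923107-90923136, plus strand: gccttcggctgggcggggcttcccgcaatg
Rps10, chr17:27635230-27635259, minus strand: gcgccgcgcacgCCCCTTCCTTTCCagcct
Rps2, chr17:24720048-24720077, plus strand: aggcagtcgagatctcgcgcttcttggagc
Rps6, chr4:86857353-86857382, minus strand: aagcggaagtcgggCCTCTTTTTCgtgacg
Rpl35, chr2:39005117-39005146, minus strand: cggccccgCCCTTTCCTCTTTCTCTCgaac
Rpl23, chr11:97782425-97782454, minus strand: acgaggtccggtcacgtggctgagtgggcg
Rpl37a, chr1:72711245-72711274, plus strand: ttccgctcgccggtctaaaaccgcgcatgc
Rplp2, chr7:141447636-141447665, plus strand: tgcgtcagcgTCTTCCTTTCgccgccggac
Rpl10l, chr12:66284387-66284416, minus strand: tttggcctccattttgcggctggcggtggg

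Such a run was present in 35 of 64 members (54.7%) and in 21.3% of all 27025 genes with a RefSeq promoter, a gene counting once if any of its starts held the run. Rps27, Rps6, Rpl35 and Rplp2 hold one, and so does Rps10, which fell. Among the strongest rises Rps13, Rps23, Rpl23, Rpl37a and Rpl10l have none at the annotated start. The median log2 fold change was 0.18 in the 33 tested members with a run and 0.19 in the 28 without, of which 19 and 16 rose. A start annotated a few bases off would hide a run, so no match says only that these letters are not in this window. A counted run can also lie wholly before the annotated start, as in Rpl13 and Rpl4. Members with a run are therefore not the same as members with a TOP element.

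Other short motifs were searched in the same 300 bases on both strands. The ETS family core CCGGAAG was in 26 of 64 members (40.6%) and in 9.93% of all genes, with a median log2 fold change of 0.16 in the 25 tested members that hold it and 0.21 in the 36 that do not. The E-box CACGTG, to which MYC binds, was in 6 (9.38%) against 8.09% of all genes: Rpl13a, Rpl14, Rpl19, Rpl23, Rpl34 and Rps19. The YY1 motif AAGATGGCG was in 4 (6.25%) against 1.64%: Rpl13a, Rpl35a, Rpl7l1 and Rps27. The hexamer AGAACA, a single arm of the element bound by the glucocorticoid receptor, to which budesonide binds, was in 10 (15.6%) against 21.3%. The full palindromic glucocorticoid response element was in 0 members and in 3 promoters in all. A match describes letters, not a bound site.

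Ribosomal proteins with other names and the translation factors did not rise as a block. Of 6 tested genes for ribosomal proteins outside the naming rule, 1 rose and 1 fell, with a median of 0.01. Over all genes tested 15.2% rose and 13.5% fell. Rack1, a scaffold on the head of the small subunit, stood at 1022, 985 and 1006 CPM untreated and at 1180.2, 1059.99 and 1261 CPM treated, with all treated libraries above (log2 fold change 0.22 ± 0.06 (SE)). Fau, which makes eS30, had a log2 fold change of 0.04 ± 0.06 (SE), and Rpl36al of -0.02 ± 0.21 (SE).

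Among 8 elongation factor genes, whose mRNAs are mostly TOP mRNAs, 2 rose and 2 fell, with a median of 0.02. Eef1a1, the factor that delivers tRNA, stood at 4300.2, 4745 and 4893 CPM untreated and at 6068, 6318 and 5757 CPM treated, without overlap (log2 fold change 0.38 ± 0.05 (SE), adjusted p = 1.02e-07, edgeR). Eef1b2 rose (0.28), Eef2 was not called (0.07), and Eef1d and the kinase gene Eef2k fell (-0.31 and -0.76). Of 15 other known TOP mRNAs, 3 rose and 2 fell, with a median of 0.00. Tpt1, the TOP mRNA of the growth-related protein TCTP, was the leading rise, at 812, 920.4 and 968 CPM untreated and at 1355, 1298 and 1321 CPM treated (log2 fold change 0.56 ± 0.06 (SE)), and Eif3f and Eif3h rose by 0.18 and 0.16. Nap1l1 and Vim fell (-0.15 and -0.19). A list of 31 initiation factor genes leaves out Eif3f and Eif3h, counted above as TOP mRNAs. Of the 31, 2 rose (Eif2s2 0.25, Eif4a1 0.16) and 11 fell, with a median of -0.11. Among the falls were Eif3b (-0.30), Eif1ax (-0.37) and Eif3j2 (-0.66). Beside each of these counts, 15.2% of all genes rose and 13.5% fell.

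Among genes that build ribosomes, more fell than rose by edgeR in the lists for the small subunit processome, large subunit assembly, late maturation and the snoRNA particles, where 15.2% of all genes rose and 13.5% fell. Of 32 genes of the small subunit processome, the large particle that folds and cuts the precursor of 18S rRNA, 1 rose (Imp4 0.22) and 6 fell, with a median of -0.06, among them Bms1 (-0.27), Wdr46 (-0.31) and Heatr1 (-0.18). Of 37 large subunit assembly genes, 3 rose (Gnl3l 0.36, Brix1 0.32, Senp3 0.21) and 8 fell, with a median of -0.03, such as Rrp1b (-0.35), Noc2l (-0.31) and Bop1 (-0.31). Late maturation and export had 0 of 21 higher and 3 lower by edgeR (Ltv1 -0.29, Rrp12 -0.28, Bysl -0.25), with a median of -0.03. Its share of falls was close to the 13.5% of all genes, whose median was -0.02. Of 10 genes for proteins of the snoRNA particles, which modify rRNA, 1 rose (Dkc1 0.37) and 4 fell, among them Nop56 (-0.28), Nolc1 (-0.30) and Nop10 (-0.52). Fbl, the methyltransferase of these particles, was not called (-0.09).

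The nucleolar scaffold gene Ncl stood at 7766, 7423 and 7448 CPM untreated and at 7009, 6417 and 6979.7 CPM treated, without overlap (log2 fold change -0.15 ± 0.05 (SE), adjusted p = 0.0198, edgeR). In the 6 scaffold genes 1 rose (Nop53 0.20) and 3 fell, with Ddx21 at -0.32 and Rrp7a at -0.35, and Npm1 was not called (-0.08). The list of chaperones and quality control factors of ribosomal proteins had 1 of 12 higher (Pdcd2, which binds RPS2, 0.45) and 3 lower (Grwd1 -0.30, the ubiquitin ligase gene Huwe1 -0.15, Nap1l1 -0.15). Of 14 genes of RNA polymerase I, which makes rRNA, and its factors, 5 rose and 3 fell: Rrn3 (0.47), Polr1h (0.58) and Taf1a (0.32) were among the rises, and Taf1d, Polr1b and Polr1a fell by 0.34, 0.35 and 0.15 on the log2 scale. Of 13 host genes of snoRNAs, 1 rose (Gas5 0.20) and 4 fell, led by Snhg4 (-0.60), Snhg5 (-0.39) and Snhg17 (-0.34). Over 16 lists, 51 of 328 tested genes rose and 58 fell, which is 15.5% and 17.7% beside 15.2% and 13.5% of all genes. Without scaling factors that was 33 and 97, and by DESeq2 33 fell. The 16 lists are of ribosomal proteins outside the naming rule, translation factors, other TOP mRNAs, ribosome assembly, mitochondrial ribosomal proteins and the regulators described next. They also include the p53 list described under other observations, in which 9 of 11 tested genes rose.

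The known regulators were measured as well. Of 11 genes of the MYC family and its partners, 5 rose and 2 fell, with a median of 0.09. Over all genes tested 15.2% rose and 13.5% fell. Mycn stood at 209, 222 and 219 CPM untreated and at 231, 213 and 229.8 CPM treated, with overlap (log2 fold change 0.05 ± 0.06 (SE)). Myc fell from 20.9 ± 1.68 to 15.7 ± 2.81 CPM (SD, n = 3, log2 fold change -0.41 ± 0.13 (SE), adjusted p = 0.0181, edgeR), and Mycl stood at 32, 29.7 and 25.5 CPM and at 9.58, 8.68 and 7.35 CPM, all treated libraries below (log2 fold change -1.75 ± 0.14 (SE)). Mga, Mxd1 and Mnt, whose proteins oppose MYC at shared sites, rose by 0.27, 0.63 and 0.33.

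Of 26 tested genes of mTORC1 signalling and TOP control, 7 rose and 3 fell, with a median of 0.01. These counts stand beside 15.2% higher and 13.5% lower among all genes. Larp1, whose protein binds TOP mRNAs, stood at 812, 768 and 750.1 CPM untreated and at 663, 624 and 718 CPM treated, all treated libraries below (log2 fold change -0.22 ± 0.06 (SE), adjusted p = 0.00177, edgeR). The genes of inhibitors of the pathway or its output were among the rises, Sesn2 (0.38), Sesn3 (0.38) and Eif4ebp1 (0.36). Castor1 and Ddit4, also known as inhibitors, fell (-0.52 and -0.21), and Mtor was not called (0.11). These are mRNA levels, and neither the activity of the pathway nor translation was measured.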

How the data were processed

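The 6 libraries were made with a stranded poly(A) kit, as the labels' extraction protocol says. Tools named in the submitters' processing notes are STAR 2.7.5c, cutadapt 2.5, featureCounts 2.0, bcl2fastq and DESeq2, with build GRCm39. Strand setting, annotation and the handling of reads with several matches: not given in the sources used here. The authors deposited raw counts per gene symbol, used for the tests. They also deposited a normalized signal for 33560 genes, which was found to be the count divided by 1 factor per library, within 0.00562 reads. The members and gene lists were chosen with earlier results of these data known.

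Genes kept by filterByExpr (minimum count 10, total 15) were tested with edgeR 4.0.16 in R 4.3.3 (TMM, robust quasi-likelihood fit, group as the only term, Benjamini-Hochberg over 17155 genes). The coefficient of variation between libraries was 5.73%. Standard errors were derived from the F statistic. CPM values are TMM-scaled. The script was tested on simulated data. Libraries of a group differed by a chi-square of 1.43 to 3.14 per gene, so none holds a copy of another's counts. These values cannot tell technical repeats from separate cultures.

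Transcript length and GC content came from 1 GENCODE M21 transcript per gene (97.3% of tested genes), of build GRCm38. Exon overlaps between genes were computed within that annotation, and no coordinate of it is printed. Promoter windows are from RefSeq, GRCm38.p6.

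Named members were the 5 largest rises and falls of each subunit with a mean of at least 5 CPM, the 5 highest and lowest per kilobase, the stalk, 5S and paralog genes, members whose call changed with a setting, those too low to test, up to 3 risen and 3 fallen genes of each other list, and fixed regulators. Others named in the text were chosen after their values were seen, and members that changed only their call are partly given as counts. A few members and list genes that meet these criteria are not reported here. Alternatives were DESeq2 1.42.0, limma 3.58.1 on the deposited normalized values as log2(value + 1), other scalings and filters, a replicate block, GC and length offsets, added pseudogene reads, an adjusted p under 0.01 and each library left out.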

Additional observations from a re-analysis of the deposited data

How the results depend on the processing

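No member that was called in the main analysis or in the alternative changed direction under any scaling, filter, tool or left-out library tried. Such changes occurred under offsets. With the GC and length offset, with it fitted on other genes and with it and the replicate block, the log2 fold changes were -0.14, -0.14 and -0.14 for Rpl22, -0.0529, -0.0473 and -0.0546 for Rpl26, -0.03, -0.024 and -0.0335 for Rpl35a, -0.17, -0.16 and -0.17 for Rpl9, and -0.005, -0.0004 and -0.0051 for Rps6. With the length offset alone Rpl26 was -0.0126 and Rpl38 -0.002.

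Risen large subunit genes, 25 in the main analysis, numbered 15 with upper quartile scaling, 13 without scaling factors (14 also without the rRNA and 7SK rows), 16 at an adjusted p under 0.01, 13 with the length offset, 12 with GC and length, 12 with that fitted on other genes and 14 with it and the block, and 16 to 28 with 1 library left out. Fallen ones, 0 in the main analysis, numbered 1 without scaling factors, 3 with the length offset, 6 under each of the 3 GC and length fits and 0 to 1 with 1 library left out. Their median log2 fold change was 0.0794 without scaling factors, 0.0974 also without the rRNA and 7SK rows, 0.0576 with the length offset, 0.0389, 0.0428 and 0.0393 under the 3 GC and length fits, and 0.13 to 0.22 with 1 library left out.

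Risen small subunit genes numbered 16 with the GC and length offset, 16 with it fitted on other genes, and 19 to 28 with 1 library left out. Fallen ones numbered 2 with upper quartile scaling, without scaling factors (also without rRNA and 7SK rows), with no filter, with the block and with the length offset, 3 under the 3 GC and length fits, 0 with pseudogene reads added and 1 to 2 with 1 library left out. Their median was 0.21 without scaling factors, 0.17 with the length offset, and 0.16, 0.17 and 0.17 under the GC and length fits. The share ratios were 1.06 (large) and 1.12 (small) without scaling factors.

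Over the other lists, 33 genes rose and 97 fell without scaling factors, 95 fell also without rRNA and 7SK rows, and 33 fell by DESeq2. Over all genes DESeq2 gave 1321 lower. The cause was not tested for any of these settings.

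The labels do not say whether replicate numbers pair the samples. Deviations from the group mean correlated at 0.04, 0.06 and -0.02 in same-numbered libraries and at -0.07 to 0.03 in differently numbered ones. With so few libraries these values cannot decide whether the samples were paired. With the replicate block, 24 large subunit genes rose and 0 fell, 28 small rose and 2 fell, and 2649 genes rose and 2337 fell. Depth limits the 4 members with too few reads for a test.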

Other observations

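Disturbed ribosome production is known to activate p53, and whether it did so here was not tested. A list of the p53 gene, its regulators and genes it is known to induce was mostly higher with budesonide. Of 11 tested, 9 rose and 1 fell by edgeR's quasi-likelihood test, beside 15.2% and 13.5% of all genes. The median log2 fold change of the 11 was 0.32 beside -0.02 over all genes. Trp53inp1 stood at 246, 219 and 219 CPM in the untreated and at 411, 379.97 and 401 CPM in the treated libraries (log2 fold change 0.80 ± 0.06 (SE)), and Mdm4 and Mdm2, which restrain p53, rose by 0.60 and 0.47. Cdkn1a, the cell cycle inhibitor that p53 induces, fell from 86.3 ± 1.27 to 50.3 ± 6.82 CPM (SD, n = 3, log2 fold change -0.78 ± 0.08 (SE)). The groups did not overlap for these 4 genes. Rps27l, the p53 target among the ribosomal protein genes, was not called.

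Genes of the mitochondrial ribosome, which is built from other proteins, did not show the pattern of the cytosolic set. Of 78 tested, 10 rose and 3 fell, which is fewer in both directions than the 15.2% and 13.5% of all genes, and the median log2 fold change was 0.04. Mrps14 (0.61), Mrpl17 (0.46) and Mrpl15 (0.32) had the smallest adjusted p-values among the rises, and Mrpl12 (-0.48), Mrpl18 (-0.32) and Mrps26 (-0.32) were the genes that fell.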
